A study of Rattus norvegicus with 18 samples.

Results

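Nqo1, Hmox1 and Gclc, 3 genes of the liver's defence against oxidants, were followed in rats given vitamin D. They were chosen by Ensembl gene ID: ENSRNOG00000012772 for Nqo1, ENSRNOG00000014117 for Hmox1 and ENSRNOG00000006302 for Gclc. All 3 IDs were found in every library, among 30560 gene IDs. The deposited files list IDs without names, so the pairing of these symbols with these IDs was taken as given and could not be checked against a reference. The livers came from 18 adult female rats, about 1 year old, which had received vitamin D for 3 months at 0, 1000 or 5000 U/kg, 6 rats per dose. Whether kg refers to the animal or its feed is not stated, nor are the strain, the diet and the form of vitamin D. Each rat gave 1 library of 3' mRNA tags (QuantSeq, a method that reads the 3' end of polyadenylated transcripts), so the tag count of a gene depends little on its length. In whole liver, a change in the number of cells of a type and a change of RNA per cell cannot be told apart.

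Nqo1 encodes NAD(P)H quinone dehydrogenase, which reduces quinones without releasing radicals. Hmox1 encodes heme oxygenase 1, the inducible enzyme that breaks heme down to biliverdin, iron and carbon monoxide, and which in the liver is known for its expression in Kupffer cells, the resident macrophages. Gclc encodes the catalytic subunit of glutamate-cysteine ligase, the rate-limiting enzyme of glutathione synthesis. All are textbook targets of the transcription factor Nrf2, which is held back by Keap1 until oxidants or electrophiles release it and which then binds antioxidant response elements. Hmox1 is also repressed by Bach1 and responds to heme, and Nqo1 also responds to the aryl hydrocarbon receptor.

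Libraries held 6787033 to 12555457 gene counts. Earlier results of these data had shown that replicate 2 of the undosed rats and replicate 5 at 1000 U/kg stand apart from their groups. Their mean Spearman correlations with the other libraries of their dose were 0.698 and 0.801, where the other 16 libraries lay between 0.869 and 0.942. Results are therefore given with and without this pair where it matters. Depth differed between doses: the mean was 9720000 gene counts in undosed rats, 9760000 at 1000 U/kg and 8080000 at 5000 U/kg. Markers of hepatocytes, Kupffer cells and other liver cells could not be looked up, because 0 of the 47357 genes of the RefSeq table carried an Ensembl ID. For the same reason the other genes of the Nrf2 pathway, 77 symbols in 6 lists, were not analysed here.

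RefSeq's promoter windows (GRCr8, 300 bases each for these genes) held an entry for Nqo1 and one for Gclc. Hmox1 had no entry. The core of the antioxidant response element, TGACNNNGC, searched on both strands, was in 0 of these 2 windows and in 12.1% of all 33469 windows, which says only that these letters are not in these short stretches. Each of the 2 windows held 1 TATA box (TATAAA), found on either strand in 14.2% of all windows. The box and its surroundings are shown 5′ to 3′, with the box in capitals, to place the annotated start of each gene. The stretch of Nqo1 lies at chr19:52220309-52220338 on the minus strand, and its box starts 59 bases before the first annotated base. The stretch of Gclc lies at chr8:87510226-87510249 on the plus strand, and its box starts 19 bases before the first annotated base. The window of Gclc opens with the first base of this stretch, so nearly all of its 300 bases lie past the first annotated base. Little sequence upstream of Gclc was therefore searched.
Nqo1: ggaaaagcaagaTATAAAgcctgaaagtgc
Gclc: gtagccTATAAAatccggagcgcg

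Levels are given in CPM, a gene's counts relative to all gene counts of its library, scaled by TMM. Over the 18 rats Nqo1 averaged 40.4 CPM, Hmox1 26.1 CPM and Gclc 19.2 CPM, above the mean level of 79.3%, 71.3% and 64.0% of the 11268 genes tested. The genes differed in how evenly the rats expressed them. Nqo1 spanned 4.12-fold from its lowest to its highest rat, Gclc 10.4-fold and Hmox1 23.0-fold. The SD of log2 CPM within doses was 0.50 for Nqo1, 0.93 for Hmox1 and 0.85 for Gclc, where the median over all genes tested was 0.66. Genes of like abundance (mean within 1.5-fold) varied less than Hmox1 in 85.3% of cases and less than Gclc in 80.4%, while Nqo1 stood near their middle at 46.4%. Counting error was small beside this spread. The median count of Hmox1 at 5000 U/kg carried a counting error of 6.40%, and the coefficient of variation between those 6 rats was 60.7%. Much of that spread was replicate 5, without which the mean was 32.4 ± 8.23 CPM (SD, n = 5). In undosed rats the counting error of Hmox1 was 8.07% and the coefficient of variation 50%. Even the lowest value of the 3 genes, Gclc in replicate 2 at 5000 U/kg, rested on 27 counts, or 3.90 CPM with an exact Poisson 95% interval of 2.57 to 5.68 for counting error only.

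**Figure D1:**
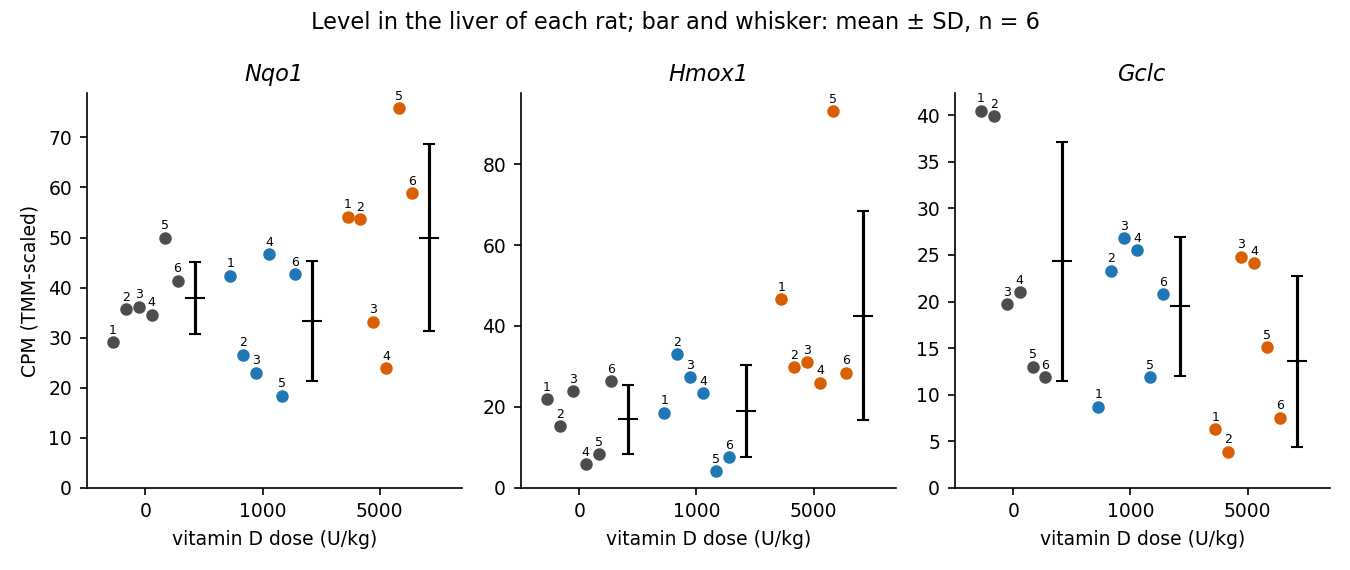
TMM-scaled CPM (y axis, linear, from 0) of Nqo1, Hmox1 and Gclc in each rat by vitamin D dose (x axis, U/kg). Points are rats, labelled by replicate number, and the bar with whiskers is the mean ± SD of 6 rats. All Hmox1 points at 5000 U/kg lie at 26.0 CPM or higher, and replicate 5 stands apart at 93.0 CPM.

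Hmox1, the heme-degrading enzyme, had its highest mean at the highest dose. In undosed rats it ranged from 5.92 to 26.3 CPM with a median of 18.5. At 1000 U/kg it ranged from 4.05 to 33.0 CPM with a median of 21.0. At 5000 U/kg the 6 rats held 26.0, 28.5, 29.8, 31.1, 46.7 and 93.0 CPM, with a median of 30.4. Thus 5 of the 6 rats at 5000 U/kg lay above every undosed rat, and the sixth, at 26.0 CPM, lay just under the highest undosed rat. At the low end, 5 rats at 0 or 1000 U/kg held under 16 CPM, and none at 5000 U/kg did. The means were 16.9 ± 8.46, 19.0 ± 11.3 and 42.5 ± 25.8 CPM (SD, n = 6 each) at 0, 1000 and 5000 U/kg.

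For 5000 against 0 U/kg the log2 fold change of Hmox1 was 1.33 (SE 0.48, 95% interval 0.33 to 2.33), or 2.52-fold. Its edgeR p was 0.0119 without adjustment, and 0.435% of the genes tested had a smaller one. Adjusted over all genes by the Benjamini-Hochberg method it was 0.99996, so the difference did not pass the threshold of 0.05. The rank depended on the tool: 0.466% of the genes had a smaller p with DESeq2 and 3.43% with limma voom. The difference with limma voom was 0.94 (95% interval 0.14 to 1.73, adjusted p = 0.557). An exact permutation test of log2 CPM over the 924 groupings of these 12 rats, two-sided, gave p = 0.00433, with all 6 dosed rats above the undosed median. The difference from 1000 U/kg was 1.16 (SE 0.48, 95% interval 0.17 to 2.16, edgeR adjusted p = 0.815), and 0.68 with limma voom (95% interval −0.08 to 1.45, adjusted p = 0.283). Between 1000 and 0 U/kg it was 0.17 (SE 0.47, 95% interval −0.82 to 1.16, edgeR adjusted p = 0.953), an interval that still holds a change of 2-fold upward. Fitted as a slope over dose, Hmox1 gained 0.27 log2 units per 1000 U/kg (SE 0.08, 95% interval 0.10 to 0.45, edgeR adjusted p = 0.953), and 16 of all genes tested (0.142%) had a smaller p. With DESeq2 0.178% of the genes did, and with limma voom 1.25%, where the slope was 0.21 (95% interval 0.06 to 0.36, adjusted p = 0.522).

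The size of the Hmox1 difference depended on 1 rat, and it was smaller in a fit with library depth as a covariate. Without replicate 5 at 5000 U/kg the mean of that dose was 32.4 ± 8.23 CPM (SD, n = 5). The log2 fold change was then 0.91 against 0 U/kg (95% interval −0.05 to 1.88, edgeR adjusted p = 0.99952) and 0.74 against 1000 U/kg (95% interval −0.22 to 1.71, edgeR adjusted p = 0.825). The slope over dose was 0.18 per 1000 U/kg (edgeR adjusted p = 0.968). Without the pair of libraries that stand apart it was 1.30 against 0 U/kg (95% interval 0.34 to 2.27, edgeR adjusted p = 0.550) and 0.94 against 1000 U/kg (95% interval −0.01 to 1.90, edgeR adjusted p = 0.785).

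Hmox1 tended to be higher in shallower libraries, and the libraries at 5000 U/kg were on average the shallowest. Over the 18 rats, log2 CPM of Hmox1 and log2 gene count had Pearson's r = −0.64 (permutation p = 0.00417, adjusted p = 0.0375) and Spearman's rho = −0.69 (permutation p = 0.00236, adjusted p = 0.0106), adjusted over the 9 relations computed between the 3 genes and 3 library measures. Without the 2 libraries farthest from the median depth, r was −0.57. As deviations from the dose mean, r was −0.46 (permutation p = 0.0710, adjusted p = 0.275), with −0.66, −0.60 and 0.03 within the groups at 0, 1000 and 5000 U/kg. With log2 gene count as a covariate, an alternative chosen after seeing the data, the difference of 5000 from 0 U/kg was 0.92 log2 units (95% interval −0.17 to 2.01, edgeR adjusted p = 0.99996). Hmox1 also followed the mean correlation of a library with its own group (rho = 0.77, permutation p = 0.00038, adjusted p = 0.00342, r = 0.50 with adjusted p = 0.190 over the 9 relations). This measure uses the other libraries of the same dose, so its 18 values are not independent, which the permutation over all rats does not take into account. Here r was 0.64 without the 2 libraries farthest from the median. As deviations from the dose mean it was 0.37 (permutation p = 0.140), and within the groups at 0, 1000 and 5000 U/kg it was 0.09, 0.84 and 0.27. For Nqo1 and Gclc no such relation passed 0.05 after adjustment. Beyond the fit with the covariate, the part of depth in the Hmox1 difference was not tested.

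**Figure D2:**
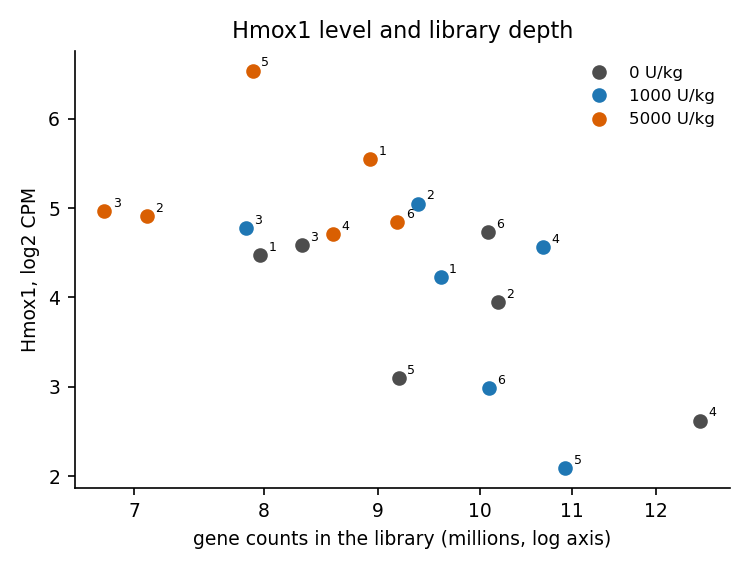
Hmox1 level (y axis, log2 CPM) against the gene counts of the library (x axis, log axis) for the 18 rats, coloured by dose and labelled by replicate number. Shallower libraries tend to lie higher (r = −0.64), and the 5000 U/kg libraries occupy the shallow side up to 9185229 gene counts.

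Nqo1, the quinone reductase, was the steadiest of the 3. It ranged from 29.1 to 50 CPM in undosed rats (median 36.0), from 18.4 to 46.7 CPM at 1000 U/kg (median 34.5) and from 23.9 to 75.9 CPM at 5000 U/kg (median 53.9). The dosed rats were more spread than the undosed, with coefficients of variation of 36.1% and 37.4% against 18.9%, a difference that was not tested. At 5000 U/kg, 4 of 6 rats lay above every undosed rat, and 1 lay below all of them, so the groups overlapped. The means were 37.9 ± 7.14, 33.3 ± 12.0 and 50 ± 18.7 CPM (SD, n = 6 each) in order of dose.

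The log2 fold change of Nqo1 was 0.40 between 5000 and 0 U/kg (SE 0.28, 95% interval −0.19 to 0.99, edgeR adjusted p = 0.99996). Between 5000 and 1000 U/kg it was 0.58 (SE 0.28, 95% interval −0.01 to 1.17, edgeR adjusted p = 0.815), and between 1000 and 0 U/kg −0.18 (SE 0.28, 95% interval −0.77 to 0.40, adjusted p = 0.905). Of the 3 intervals, those of both comparisons with undosed rats lay within 2-fold either way. Exact permutation tests of log2 CPM gave p = 0.262, 0.123 and 0.361 in the same order. Without replicate 5 at 5000 U/kg, which held the highest level of Nqo1 as of Hmox1, the log2 fold change against undosed rats was 0.22. Without replicate 5 at 1000 U/kg, the lowest library for both genes, that between 1000 and 0 U/kg was −0.07.

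Gclc, which supplies glutathione, had its lowest mean at the highest dose. It ranged from 11.9 to 40.5 CPM in undosed rats (median 20.4), from 8.70 to 26.8 CPM at 1000 U/kg (median 22.1) and from 3.90 to 24.8 CPM at 5000 U/kg (median 11.3). The order of the medians was not that of the dose, since the rats at 1000 U/kg had the highest. At 5000 U/kg replicates 1, 2 and 6 held 6.28, 3.90 and 7.54 CPM, below every undosed rat, while replicates 3 and 4 held 24.8 and 24.1 CPM, above the undosed median. The means were 24.3 ± 12.8, 19.5 ± 7.46 and 13.6 ± 9.19 CPM (SD, n = 6 each).

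None of the differences of Gclc passed the test. The log2 fold change was −0.84 between 5000 and 0 U/kg (SE 0.45, 95% interval −1.77 to 0.10, edgeR adjusted p = 0.99996), with an exact permutation p of 0.0974. It was −0.52 between 5000 and 1000 U/kg (SE 0.45, 95% interval −1.45 to 0.41, adjusted p = 0.840; −1.11 with limma voom, 95% interval −1.88 to −0.35, adjusted p = 0.196) and −0.32 between 1000 and 0 U/kg (SE 0.44, 95% interval −1.25 to 0.61, adjusted p = 0.901). The undosed replicate 2, one of the pair of libraries that stand apart, held 39.9 CPM, next to the highest. Without that pair the log2 fold change of 5000 against 0 U/kg was −0.63 (95% interval −1.59 to 0.32, edgeR adjusted p = 0.625) and that of 1000 against 0 U/kg was 0.00. With log2 gene count as a covariate, that of 5000 against 0 U/kg was −1.11 (95% interval −2.20 to −0.02, edgeR adjusted p = 0.99996). The same fit gave 0.52 for Nqo1 (95% interval −0.19 to 1.22, edgeR adjusted p = 0.99996).

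**Figure D3:**
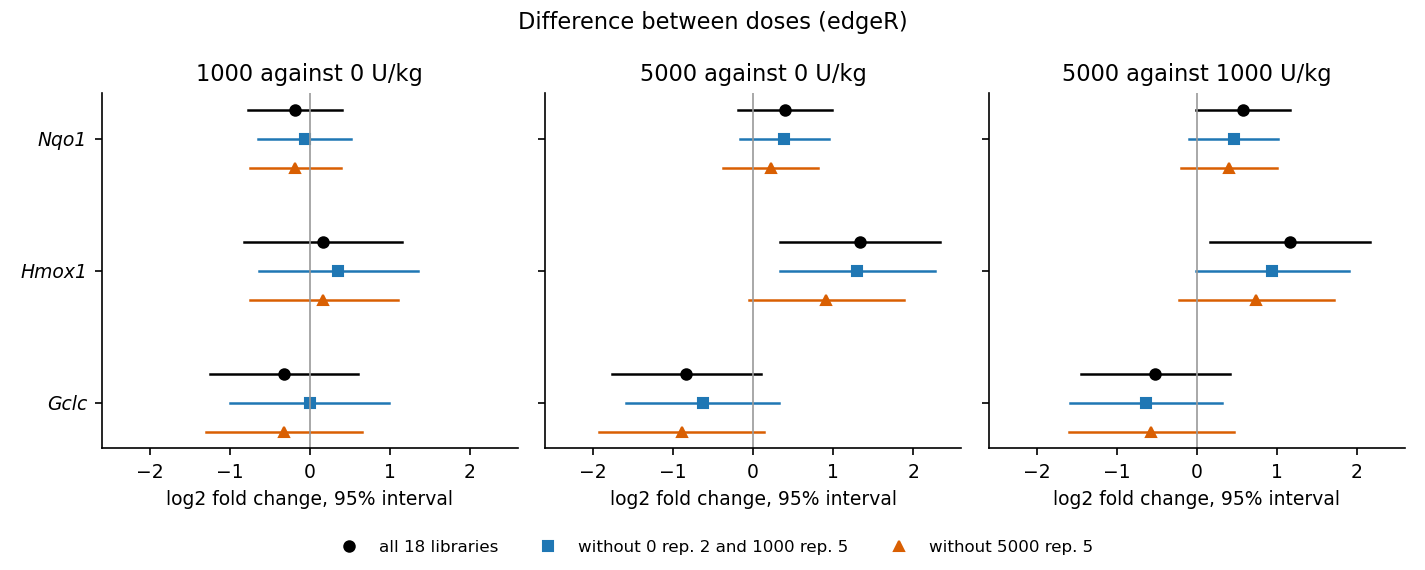
Log2 fold change (x axis) of Nqo1, Hmox1 and Gclc between doses, with 95% intervals from edgeR, for all 18 libraries, without the pair of libraries that stand apart, and without replicate 5 at 5000 U/kg. With all libraries, the intervals of Hmox1 for 5000 U/kg against both lower doses lie above 0 before adjustment over all genes, and that of 5000 against 0 U/kg reaches below 0 without replicate 5 at 5000 U/kg (0.91, interval −0.05 to 1.88).

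With edgeR's adjusted p, 0 of the 3 and 0% of the 11268 genes tested passed 0.05 in each pairwise comparison, in the test of any dose and in the dose slope. DESeq2 and limma voom also called 0 of the 3. Without adjustment, Hmox1 alone had an edgeR p under 0.05 for 5000 against 0 U/kg, where 3.55% of all genes did, and for 5000 against 1000 U/kg, where 5.86% did (0.0518 with the replicate block). With limma voom the latter comparison gave another picture: Nqo1 and Gclc had unadjusted p-values of 0.0108 and 0.00631 and Hmox1 one of 0.0782, where 2309 of the 11268 genes lay under 0.05. For 1000 against 0 U/kg none of the 3 did, against 7.45% of all genes. In edgeR's test of any dose (5.59% of all genes) and its dose slope (3.34%) it was again Hmox1 alone. In the dose slope of limma voom, unadjusted p-values were 0.0496 for Nqo1, 0.00963 for Hmox1 and 0.0322 for Gclc, where 1063 of the 11268 genes lay under 0.05. Both comparisons with undosed rats use the same 6 undosed libraries.

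Within a single library, the ratio of 2 genes' counts does not depend on how libraries are scaled. The ratio of Hmox1 to Gclc counts had a median of 0.591 in undosed rats (0.282 to 2.20), 0.970 at 1000 U/kg (0.339 to 2.13) and 4.97 at 5000 U/kg (1.08 to 7.63). Hmox1 exceeded Gclc in 2, 3 and 6 of 6 rats, so the rats at 5000 U/kg were the ones in which Hmox1 was counted more often than Gclc throughout. The ratio of Nqo1 to Gclc had medians of 1.74, 1.69 and 6.42, with a range of 0.991 to 13.7 at 5000 U/kg and 0.719 to 3.85 in undosed rats. Both ratios overlapped the undosed range in replicates 3 and 4 at 5000 U/kg. These held 1.26 and 1.08 for Hmox1 to Gclc, and 1.34 and 0.991 for Nqo1 to Gclc. The other rats of that dose lay above every undosed rat in both ratios. Nqo1 to Hmox1 had medians of 1.96, 2.14 and 1.11. These ratios combine levels already given and were not tested.

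Covariation was taken over the rats. Nqo1 and Gclc tended to run in opposite directions: over the 18 rats their log2 CPM had Pearson's r = −0.50 (permutation p = 0.0346, adjusted over the 3 pairs 0.101) and Spearman's rho = −0.58 (permutation p = 0.0120, adjusted 0.0361). That rho does not set the pair apart. It lay inside the 5th to 95th percentiles of rho over 7699 other genes, −0.59 to 0.59 with Nqo1 and −0.63 to 0.67 with Gclc. Without the 2 libraries farthest from the median of Nqo1, replicate 5 at 1000 and replicate 5 at 5000 U/kg, r was −0.73. Leaving out replicate 5 at 1000 U/kg alone gave r = −0.65 (permutation p = 0.00522, adjusted 0.0157), and leaving out both libraries that stand apart gave −0.66. The relation was negative among undosed rats (r = −0.81, exact permutation p = 0.0569, n = 6) and at 5000 U/kg (r = −0.60, exact permutation p = 0.233, n = 6), and near 0 at 1000 U/kg with all 6 rats (r = 0.02, exact permutation p = 0.949). As deviations from the dose mean, r was −0.43 (permutation p = 0.116, adjusted 0.349), and −0.29 with the replicate number as a further block (permutation p = 0.245, adjusted 0.368). At 5000 U/kg the rats with the least Nqo1, replicates 3 and 4 at 33.2 and 23.9 CPM, were those with the most Gclc. In the other rats of that dose the 2 genes rose together. Replicates 2, 1, 6 and 5 held 53.7, 54.2, 58.9 and 75.9 CPM of Nqo1, with 3.90, 6.28, 7.54 and 15.1 CPM of Gclc.

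Nqo1 and Hmox1 had r = 0.44 (permutation p = 0.0671, adjusted 0.101) and rho = 0.32 (permutation p = 0.198, adjusted 0.297). This rested on 2 rats, replicate 5 at 5000 U/kg, highest for both genes, and replicate 5 at 1000 U/kg, lowest for both: without them r was −0.05. On linear CPM, r was 0.62 (permutation p = 0.00945, adjusted 0.0283). As deviations from the dose mean, r was 0.28 (permutation p = 0.298). Within doses it was −0.27, 0.25 and 0.67 at 0, 1000 and 5000 U/kg (exact permutation p = 0.606, 0.578 and 0.162, n = 6 each).

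Hmox1 and Gclc had r = −0.13 (permutation p = 0.599, adjusted 0.599) and rho = −0.19 (permutation p = 0.447, adjusted 0.447), and r = −0.22 without the 2 libraries farthest from the median of Hmox1. As deviations from the dose mean the sign turned (r = 0.19, permutation p = 0.432), and within doses r was 0.12, 0.47 and 0.03 (exact permutation p = 0.846, 0.350 and 0.951, n = 6 each).

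**Figure D4:**
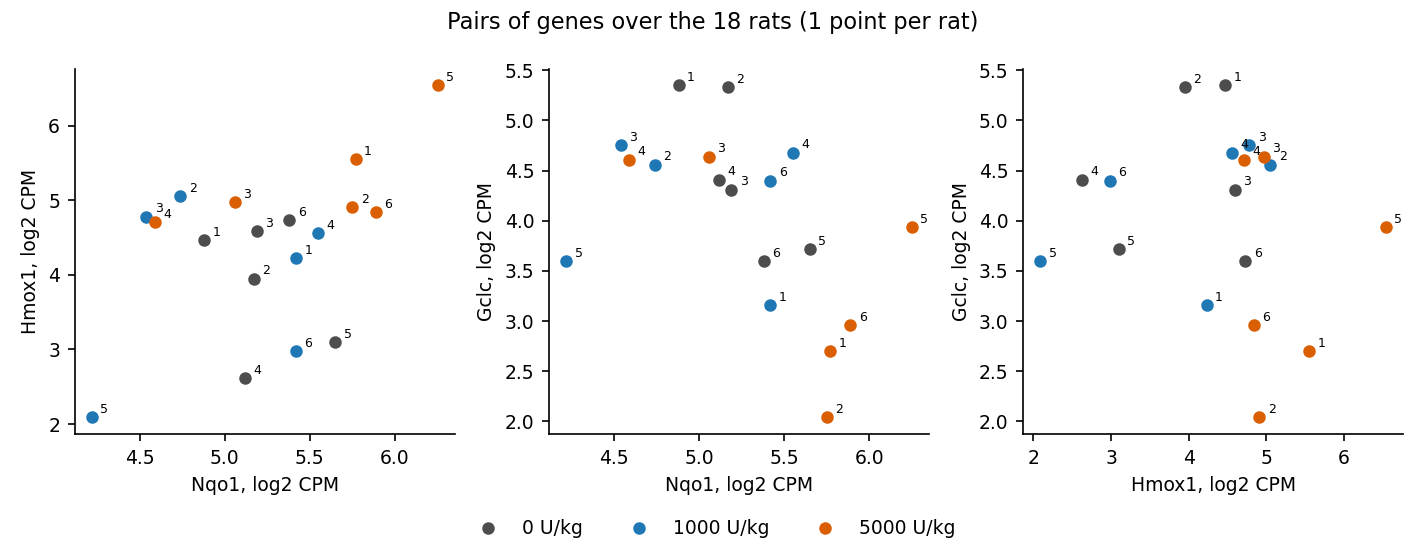
Log2 CPM of each pair of the 3 genes over the 18 rats, 1 point per rat, coloured by dose and labelled by replicate number. Gclc tends to be lower where Nqo1 is higher (middle, r = −0.50), with exceptions such as replicate 5 at 1000 U/kg, low for both, and replicate 4 at 1000 U/kg, high for both, while the positive relation of Hmox1 and Nqo1 (left, r = 0.44) comes from the 2 rats at the ends.

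Likeness to each of the 3 genes was Spearman's rho of log2 CPM over the 18 rats, taken as a description over 7699 other genes that averaged 5 CPM or more. For Gclc the most alike gene was ENSRNOG00000003065, at rho = 0.96, and 10 genes reached 0.90. It averaged 35.6 ± 13.0, 30.4 ± 11.3 and 24.5 ± 12.8 CPM (SD, n = 6 each) in order of dose. For Hmox1 it was ENSRNOG00000015295 at rho = 0.91, with 99.6 ± 39.9, 123 ± 37.3 and 162 ± 17.6 CPM. For Nqo1 it was ENSRNOG00000003232 at rho = 0.85, with 48.0 ± 10.1, 47.2 ± 17.1 and 63.7 ± 22.9 CPM. The most alike of so many genes is high by choice: the median rho over all of them was 0.05 for Nqo1, 0.00 for Hmox1 and −0.07 for Gclc. Among the genes ranked by likeness to Hmox1, 19.5% lay above Nqo1. Among those ranked by likeness to Nqo1, 26.3% lay above Hmox1 and 94.4% above Gclc, which puts Gclc near the lower end of the scale, whose 5th percentile was −0.59. On the scale of likeness to Gclc, 92.5% of genes lay above Nqo1, and the 5th percentile was −0.63. The files do not name these genes.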

How the data were processed

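Liver RNA of 18 rats was sequenced as QuantSeq 3' mRNA-Seq FWD libraries, 1 per rat. The deposited values were raw counts per gene, not normalized by the authors. STAR, HTSeq, FastQC and DESeq2 are named in the submitters' processing notes; for their versions, the build, the annotation and the strand setting, nothing is stated. If counting ignored strand, reads of overlapping and antisense genes would be counted together. The 5 HTSeq summary rows were left out of library sizes; reads in no gene made up 7.34% to 11.8% of a file. Groups and replicate numbers came from the titles, and no 2 libraries of a dose had counts that differed as little as sampling noise (smallest chi-square divided by its degrees of freedom 13.8).

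Computed here with edgeR 4.0.16 in R 4.3.3: the default filter by dose, TMM scaling (factors 0.872 to 1.13), 1 robust quasi-likelihood fit of 3 dose groups on all 18 libraries, and Benjamini-Hochberg adjustment over 11268 genes. All 3 genes passed the filter. Intervals are the log2 fold change and its SE from the F statistic. The dose slope used doses of 0, 1000 and 5000 U/kg as numbers. Correlations used log2 CPM with a prior count of 2 and 100000 resamples (exact within doses). Alternatives were limma 3.58.1 (voom, weighted by sample quality), DESeq2 1.42.0, other scalings and filters, the replicate number as a block, and libraries left out. The edgeR fit and the correlation test were also run on simulated data drawn independently. Those data had no libraries that stand apart and no genes that vary together, so they do not cover these features. The 3 genes, the gene lists and the alternatives were chosen with earlier results of these data known. The rule for named genes was the 3 genes and, with no symbols to match, the 1 gene most like each.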

Additional observations from a re-analysis of the deposited data

Results flagged for a closer look

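Of the 9 groups of values tested (3 genes at 3 doses), 1 held a rat whose distance to its nearest neighbour exceeded Dixon's 95% limit for 6 samples (0.625 of the group's range). It was Hmox1 in replicate 5 at 5000 U/kg, at 93.0 CPM where the next rat held 46.7 CPM, a gap of 0.690 of the range. Chance alone marks about 1 in 20 such groups if their values are normally distributed, and 9 groups were tested. The limit was applied to linear CPM and was not tested on log2 CPM, where these 2 rats held 6.54 and 5.55. The same rat also held the highest Nqo1, 75.9 CPM, while its Gclc, 15.1 CPM, lay within the range of its dose.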

How the results depend on the processing

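For the 3 genes, 0 differences between doses passed the threshold under any alternative with p-values adjusted over all genes; the exact permutation test of single genes has no such adjustment and gave its smallest p, 0.00433, for Hmox1 between 5000 and 0 U/kg. Over all genes, edgeR and limma voom called 0 in every test and DESeq2 called 1 for any dose and 1 for the dose slope, neither of the 3. Hmox1 between 5000 and 0 U/kg kept its sign under all alternatives, from 0.91 to 1.5 on the log2 scale, and Gclc from −1.11 to −0.62. Between 1000 and 0 U/kg Gclc turned to 0.36 with limma voom (0.00 without the pair that stands apart), and Hmox1 ranged from −0.06 to 0.37 with single libraries left out, below 0 without the undosed replicate 4 or replicate 2 at 1000 U/kg.

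Nqo1 and Hmox1 had r = 0.62 on linear CPM (adjusted p = 0.0283, permutation test), −0.05 without the 2 rats at the ends and −0.27 in undosed rats. Nqo1 and Gclc had −0.66 without the pair that stands apart, −0.73 without the 2 rats farthest in Nqo1 and 0.02 at 1000 U/kg. They had −0.39 when scaled by total gene count alone and −0.65 to −0.45 with single libraries left out. Hmox1 and Gclc had 0.19 as deviations from the dose mean and 0.12, 0.47 and 0.03 within doses.

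Replicate numbers recur at each dose with no stated link between rats, so the numbers were not taken as a pairing. Of 18 same-numbered pairs of libraries, 10 deviated together with a correlation above 0.1 and 6 had one below 0 (−0.41 to 0.64 in all). Pairs of unlike number were not computed, so these values cannot decide whether the numbers mark a link. With the replicate number as a block, Hmox1, Nqo1 and Gclc between 5000 and 0 U/kg had 1.37, 0.36 and −0.94, and r was 0.43 for Nqo1 and Hmox1, −0.29 for Nqo1 and Gclc and 0.22 for Hmox1 and Gclc. Hmox1 between 5000 and 1000 U/kg had 1.18, with an interval from −0.01 to 2.38. The block changed no call on adjusted p. Counting error was small beside the spread between rats. For Hmox1 it was 6.40% against 60.7% at 5000 U/kg, a spread that includes replicate 5, and 8.07% against 50% in undosed rats. For 5000 against 0 U/kg the 95% interval of the fold, which holds counting error and spread, ran from 1.26 to 5.04 for Hmox1 and from 0.293 to 1.07 for Gclc.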
